A study of Arabidopsis thaliana with 4 samples.

Results

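The array held 8247 Arabidopsis thaliana probe sets, not counting 50 controls, and 4948 of them had a mean signal over the 4 arrays of at least 282.5. Of these 4948, 88 were at least 2-fold higher on each array of seeds imbibed with trichostatin A than on each array of untreated seeds, and these 88 probe sets are described here. They were chosen on the scale log2(signal + 30.8), by requiring that the lower TSA value exceed the higher untreated value by 1 or more. The background of this rule is therefore 1.78% of the probe sets tested, and the same rule turned round found 48 probe sets lower with TSA (0.97%). The choice used all 4 arrays of the single contrast of the study, so the differences below describe the members and no test on them is independent of the choice.

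Both groups were seeds of ecotype Columbia surface sterilized, placed on nylon membranes over agar with Murashige and Skoog salts, and kept for 3 days under 16 h of light. The TSA group (2 arrays) had trichostatin A in the medium, given as 10 micromolar in the source label and as 10 mM in the treatment protocol, and the untreated group (2 arrays) had none. The replicates were separate treatments, and the growth protocol of the TSA samples adds that there was no stratification, which the protocol of the untreated samples does not mention. Total RNA of whole seeds was measured, so a change in the share of a tissue and a change in RNA per cell cannot be told apart.

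Trichostatin A blocks histone deacetylases, which remove acetyl groups from histone tails and are generally associated with repressed chromatin. During seed maturation the embryo fills with storage proteins and oil and then makes late embryogenesis abundant (LEA) proteins, hydrophilic proteins that are linked to survival of drying. Dehydrins are a LEA family that vegetative tissue also makes under cold, drought or abscisic acid. Transcripts of this maturation programme are stored in the dry seed and normally decline after imbibition, when the seedling programme takes over.

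The array annotation listed a single gene for 39 of the 88 probe sets, at 38 loci, several genes for 2 and no gene for 47. Among all tested probe sets the share with a single gene was 43.0%, against 44.3% among the members. Among them, 9 probe sets for 8 genes belonged to LEA proteins and dehydrins, and 5 more to other seed or dehydration proteins. These role groups were formed after the values were seen and were not counted over all tested probe sets, so their sizes say nothing of how the members differ from the rest of the array. The median log2 difference between the TSA and untreated means was 2.44 over the 88 members and -0.02 over all tested probe sets. By limma, with Benjamini-Hochberg adjustment over the 4948 probe sets, none of the members passed an adjusted p of 0.05, and their adjusted p ranged from 0.555 to 0.999. Over all tested probe sets limma called 0 higher and 0 lower, a share of 0.0% in each direction. At an unadjusted p of 0.05 it listed 84 higher (1.7%) and 50 lower (1.01%), and 71 members were among the higher ones. A two-sided exact permutation test of 2 arrays against 2 cannot go below a p of 0.333.

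**Figure D1:**
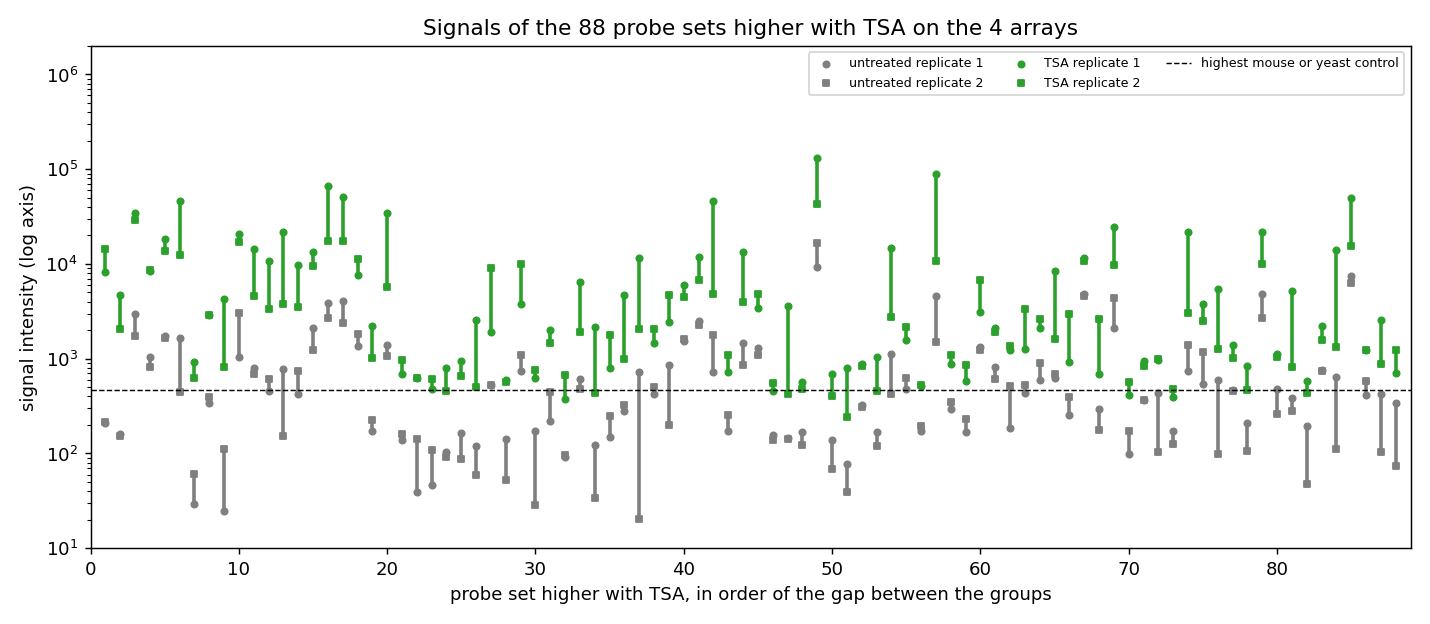
Signal intensity (log axis) of the 88 probe sets on the 4 arrays, in order of the gap between the lower TSA and the higher untreated log2 value. Green marks the 2 TSA arrays and grey the 2 untreated arrays, circles are replicate 1 and squares replicate 2, vertical lines join the replicates, and the dashed line is the highest mouse or yeast control signal, 465.9. The green and grey ranges do not overlap at any member, as the rule requires, and 41 members have both untreated signals under the line.

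The level at which the untreated seeds were measured divided the members. A plant sample carries no target for the 8 mouse and yeast control probe sets of the array, and the highest of their signals was 465.9. Both untreated signals were under this level at 41 of the 88 members (46.6%, against 13.9% of all tested), 1 of the 2 was under it at 15 (17.05% against 21.36%), and both were over it at 32 (36.4% against 64.7%). The choice of members itself favours low untreated signals. The rule asks for a gap below the TSA signals, and the filter on the mean of 4 arrays could be passed through the TSA signals alone. Of the 41, 30 had both TSA signals over the control level and 11 had only 1. Both untreated signals under the level and both TSA signals over it occurred at 34.1% of the members and at 2.02% of all tested probe sets, a contrast that the rule itself favours. At these 30 members the lower TSA signal was 1.01 to 17.5 times the control level, with a median of 1.64, so the size of most of these differences is not exact. The 32 members measured on both sides had log2 differences from 1.25 to 3.80, with a median of 2.61. When each untreated array was compared with its own highest mouse or yeast control, 165.7 on replicate 1 and 465.9 on replicate 2, 18 members had both untreated signals under it. The control level named for single genes below is 465.9 on every array. Some signals under it, such as those of AT4G36700, HIS1-3, AT2G36630 and FAC1 on untreated replicate 1, were over 165.7.

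LTI30, also called XERO2, encodes a dehydrin induced by cold and abscisic acid, and it had the widest gap between the groups of the members with a single gene. Its probe set 19186_s_at read 8411 and 8651 with TSA and 1052 and 811.2 without, replicate 1 first here and below. The replicates lay close together in both groups, and all 4 signals were over the control level. On the log2 scale it was higher by 3.16 ± 0.63 (SE; limma's adjusted p, 0.999), by 2.96 in the replicate 1 pair and by 3.37 in the replicate 2 pair.

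LEA4-5 encodes a LEA protein that accumulates under water deficit. Its signals were 51084 and 17332 with TSA and 4019 and 2358 without. Both TSA arrays stood well over both untreated arrays, with TSA replicate 1 the higher of the pair. On the log2 scale it was higher by 3.26 ± 0.84 (SE), by 3.66 in the replicate 1 pair and by 2.86 in the replicate 2 pair. AT3G15670, a LEA-domain protein, had signals of 66511 and 17281 with TSA and 3890 and 2696 without. Its log2 difference was 3.38 ± 0.89 (SE). The pattern was that of LEA4-5, with TSA replicate 1 highest and all 4 signals over the control level.

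The dehydrin gene AT2G21490, whose symbol in the gene table is LEA, was read by 2 members. Probe set 18559_g_at gave 22010 and 3004 with TSA and 738.2 and 1410 without. Probe set 18558_at gave 8401 and 1612 with TSA and 633.3 and 697.8 without. Both therefore placed TSA replicate 1 far over TSA replicate 2. Their log2 differences were 4.84 and 3.67 in the replicate 1 pair and 1.08 and 1.17 in the replicate 2 pair. The 2 IDs share their number, and their values are not independent readings.

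The other 4 genes of this group had at least 1 untreated signal under the control level. AT3G17520, a LEA-domain protein, read 21954 and 3812 with TSA and 781.7 and 152.1 without. Its untreated replicate 2 signal was under the control level, so the size of its log2 difference of 4.58 is not exact, and with 1 array left out it ranged from 3.32 to 5.83. M17, a LEA-like gene expressed late in embryogenesis, read 11579 and 2072 with TSA and 718.4 and 20.4 without. Its log2 difference of 4.66 ± 1.43 (SE) is not exact, since it rests partly on an untreated signal close to the lowest mouse or yeast control signal, 19.3. AT2G42560, a LEA-domain protein, read 919.9 and 620.4 with TSA and 29.2 and 61.3 without. AT4G36600, also of the LEA family, read 2572 and 499.6 with TSA and 120 and 58.7 without. For these 2 genes both untreated signals were at control level, and the lower TSA signal was 1.33 and 1.07 times that level.

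Among the other seed and dehydration proteins, AT2G21820 encodes a seed maturation protein. It read 6456 and 1932 with TSA and 608.5 and 480.2 without. ATOEP16-2 encodes the seed form of a channel-like protein of the plastid outer envelope, and it read 14762 and 2739 with TSA and 1117 and 424.1 without. AT1G04560, a membrane protein of the AWPM-19 family known from wheat as responsive to abscisic acid, read 13390 and 3927 with TSA and 1480 and 855 without. In each of the 3 genes TSA replicate 1 was the highest array, and the groups were apart as the rule requires. With median centring the log2 gap was 0.845 for ATOEP16-2 and 0.964 for AT1G04560, under the threshold of 1. The untreated replicate 2 signal of ATOEP16-2 was under the control level.

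AT4G36700 encodes a protein with the cupin fold that seed storage globulins share, and it read 4670 and 983.4 with TSA and 281.2 and 325.6 without. AT4G25580, of the CAP160 family named from a cold acclimation protein of spinach, read 2154 and 430.3 with TSA and 121.5 and 34.2 without. Both had untreated signals at control level, and so was the TSA replicate 2 signal of AT4G25580. Over the 5 genes the log2 difference ranged from 2.64 to 3.33, with a median of 2.71.

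**Figure D2:**
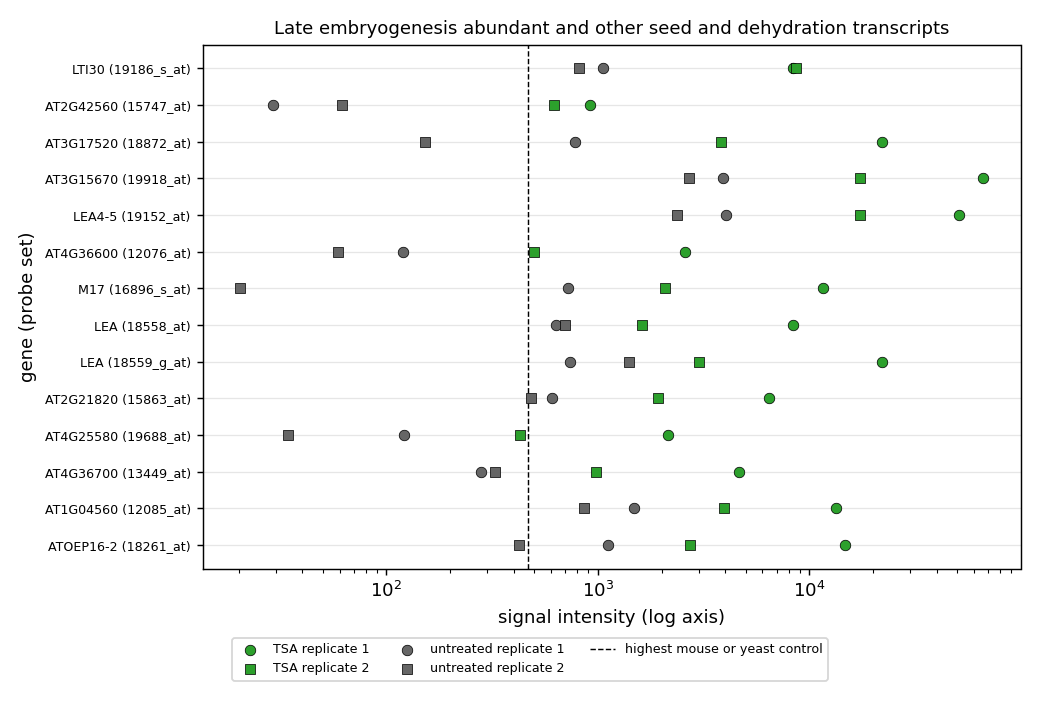
Signal intensity (log axis) on each array for the 9 LEA and dehydrin probe sets (top) and the 5 other seed and dehydration probe sets (bottom). Green symbols are TSA and grey symbols untreated, circles are replicate 1 and squares replicate 2, and the dashed line is the highest mouse or yeast control, 465.9. TSA replicate 1 is to the right of TSA replicate 2 at 13 of the 14 probe sets, the exception being LTI30.

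The 2 TSA arrays differed in size at most of these probe sets. Of the 14 LEA, dehydrin, seed and dehydration probe sets, 12 were at least 2-fold brighter on TSA replicate 1 than on TSA replicate 2, and none the other way (0). Among the other 20 members with a single gene and a role, 2 were at least 2-fold brighter on TSA replicate 1 and 3 on TSA replicate 2. Over all 88 members the counts were 33 (37.5%) and 7 (7.95%), and over all tested probe sets the shares were 23.3% and 26.0%. The rule did not ask which TSA replicate was the brighter, but a wide spread lowers the lower TSA value that it uses. The groups were formed after these values were seen, and the contrast was not tested. The 14 probe sets met the rule on either TSA array, as every member must. Within replicate 2 alone their log2 differences, which the rule holds at 1 or more, ranged from 1.08 to 5.36. Some of these were against untreated signals at control level.

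**Figure D3:**
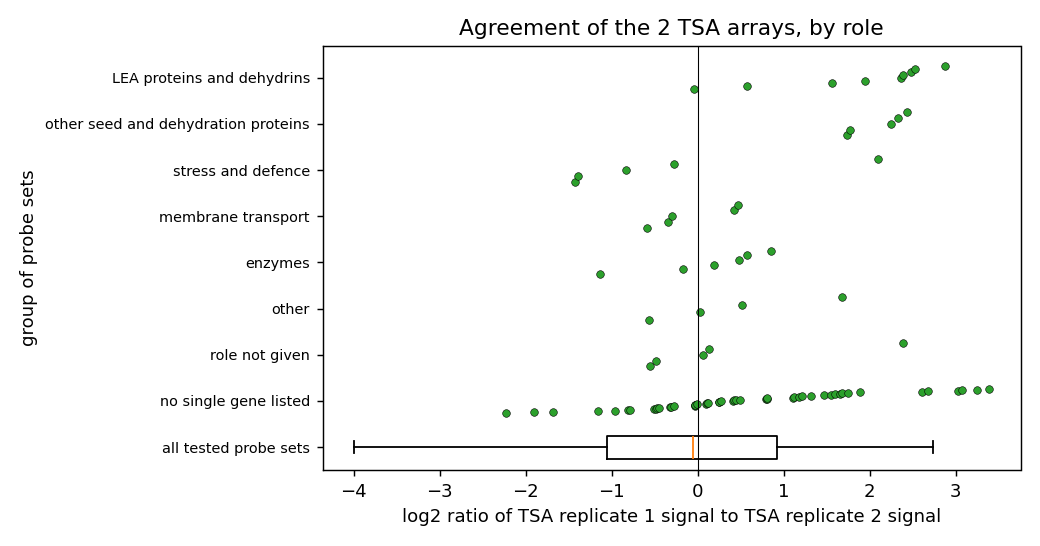
Log2 ratio of the signal on TSA replicate 1 to that on TSA replicate 2 for each of the 88 members, by role group, each point 1 probe set (the vertical spread within a group only separates the points). The box shows all 4948 tested probe sets (median, quartiles, and whiskers at the 5th and 95th percentiles). LEA, seed and dehydration members lie mostly to the right of 0, and the other groups lie on both sides.

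Related seed transcripts outside the 88 gave mixed values. Of a list of 17 LEA and dehydrin genes, 5 were matched to the array, and 5 probe sets for 4 of them were tested. LTI30 and LEA4-5 are members, and the 3 other probe sets had differences of opposite sign in the 2 replicates. The dehydrin gene COR47 was read by 2 probe sets, and on both it was lower with TSA in replicate 1 (-0.44 and -0.72) and higher in replicate 2 (3.17 and 2.61), so its groups overlapped. AT3G22490, a seed LEA gene, was higher in replicate 1 (3.59) and not in replicate 2 (-0.25). It read 790.5 and 254.5 with TSA and 37.6 and 307.9 without, so both replicate 2 signals were under the control level. The remaining gene, the cold-responsive COR15B, was under the signal minimum, with signals from 47.1 to 243.7.

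By the words of the gene table, 9 tested probe sets belonged to LEA or dehydrin genes, of which 4 were members. Another 2 had both TSA signals under both untreated signals without reaching 2-fold. How often that order occurred over all tested probe sets was not counted, so the 2 do not set this family apart from the array. The words of the gene table missed the members AT3G17520, AT3G15670, M17, AT2G42560 and AT4G36600, and also COR47 and AT3G22490. The 9 are therefore not all tested LEA probe sets, nor are they the 9 LEA and dehydrin members above. LEA18 missed the rule narrowly, with 37286 and 6387 when treated and 3479 and 2101 when not. AtLEA4-1 read 29126 and 1242 with TSA and 1504 and 1700 without, and so was high on TSA replicate 1 alone. The 2 with lower TSA signals throughout were AT1G54410, a dehydrin, at 12944 and 19214 with TSA and 36479 and 22058 without, and AT2G44060, at 3451 and 5524 with TSA and 8983 and 6376 without. AT2G46140 was lower with TSA in both replicates (-0.65 and -1.39), at 9410 and 1962 with TSA and 14735 and 5176 without, with groups that overlapped. LEA genes as a family were therefore not all higher with TSA in these arrays.

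Of 6 oil body protein genes, 1 was on the array by name. OLEO3, an oleosin that coats oil bodies, read 13502 and 1182 with TSA and 1137 and 359.2 without, so that the groups just parted and the 2-fold rule was not met. Of 9 seed storage protein genes, only AT1G03890 was matched, and its 3 probe sets were under the signal minimum, with mean signals of at most 163.1. The storage protein content of these seeds was thus not measured by a listed gene. The list of 11 photosynthesis genes had 1 tested probe set, for RCA, the Rubisco activase, at 3706 and 70795 with TSA and 16026 and 14547 without. Isocitrate lyase (ICL), which serves the conversion of seed oil to sugar, was the tested gene of 4 for reserve mobilisation, and it read 79848 and 113186 with TSA and 20351 and 162944 without. For both genes the groups overlapped. RCA was lowest and AtLEA4-1 and OLEO3 were highest on TSA replicate 1, but other transcripts named above went the other way. The 2 probe sets of COR47 read 3865 and 7010.5 on TSA replicate 1 and 16186 and 34314 on TSA replicate 2. AT1G54410 and AT2G44060 were lowest on TSA replicate 1. RCA and OLEO3 were each the only tested probe set of their list. The part of TSA replicate 1 in the results above was not tested.

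Stress and defence genes made up 5 members. AT1G05340, a small cysteine-rich membrane protein of stress responses, read 3766 and 9902 with TSA and 740.4 and 1091 without. Its log2 difference was 2.72 ± 0.74 (SE). TSA replicate 2 was the highest array, and all signals were over the control level. AT1G53540, a small heat shock protein of the cytosol, read 372.7 and 666.1 with TSA and 92 and 97.2 without. Its TSA replicate 1 signal was under the control level too, so this difference lies close to background. Of the 11 heat shock and chaperone genes listed, 3 were tested, and the other two, AT1G59860 and AT2G29500, had differences of opposite sign in the 2 replicates.

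CHI, annotated as a chitinase, an enzyme that cleaves a polymer of fungal walls, read 1253 and 3359 with TSA and 439.7 and 530.6 without. AT2G15010, a thionin, a kind of small antimicrobial peptide, read 5422 and 1270 with TSA and 590.3 and 97.6 without. The first was higher on TSA replicate 2 and the second on TSA replicate 1. Of 5 listed defence genes only THI2.1, another thionin, had a tested probe set. It read 1583 and 792.2 with TSA and 519.3 and 1019 without, and its groups overlapped.

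HIS1-3, placed in the stress group, encodes a linker histone, a variant of H1 induced by drought. It read 622.2 and 754.1 with TSA and 173.4 and 28.5 without. Both TSA signals were over the control level and both untreated ones under it, so the log2 difference of 2.70 ± 1.07 (SE) is not exact in size. Of the 3 tested probe sets named as histones, the other two were not members. HIS4, for histone H4, read 8434 and 2528 with TSA and 9555 and 7753 without, and HTB2, for histone H2B, read 8543 and 1579 with TSA and 6497 and 4388 without. None of the 8 listed histone deacetylase genes was matched to a probe set.

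EXPA8 encodes an expansin, a protein that loosens the cell wall during growth. It read 7695 and 11397 with TSA and 1372 and 1813 without. The TSA and untreated signals were each close together, and the log2 difference of 2.55 ± 0.68 (SE) was nearly the same within replicate 1 (2.46) and replicate 2 (2.63). Across the replicate numbers, TSA replicate 1 was over untreated replicate 2 by 2.07. Of 8 tested probe sets named as expansins, EXPA8 was the only one to meet the rule. EXLA2, at 1066 and 1754 with TSA and 488.8 and 696 without, and 1 of the 2 EXPB1 probe sets also had groups that did not overlap, as did 14.0% of all tested probe sets in this direction.

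Transport proteins contributed 5 members. AT1G61890, a MATE efflux transporter, read 6003 and 4493 with TSA and 1535 and 1633 without, all over the control level, with a log2 difference of 1.69 ± 0.64 (SE). GLR3.5, a glutamate receptor-like channel, read 484.8 and 614.7 with TSA and 46.1 and 109.9 without. AT2G36630, of a sulfite exporter family, read 731.3 and 1099 with TSA and 172.6 and 257.5 without. For GLR3.5 and AT2G36630 the untreated seeds gave no signal over the control level. AT4G38350, of the Niemann-Pick C1 family, and AT4G36850, a PQ-loop protein, had log2 differences of 1.31 and 1.59. None of the 5 (0) had TSA replicates 2-fold apart.

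Enzymes made up 6 members, with log2 differences from 1.21 to 1.94. AAH, allantoate amidohydrolase, which releases nitrogen from a purine breakdown product, read 1222 and 1373 with TSA and 187.4 and 514.1 without. FAC1, AMP deaminase, an enzyme of purine metabolism, read 945.9 and 830.3 with TSA and 363.1 and 366.2 without. The 2 purine enzymes thus had close TSA replicates, with untreated signals near or under the control level.

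UGT87A2, a glucosyltransferase, read 2229 and 1593 with TSA and 759.1 and 743.6 without. It was 1 of 11 tested probe sets named as UGT enzymes, of which no other met the rule, and the median log2 difference of the 11 was 0.13. AT2G39980, an acyltransferase, read 3756 and 2522 with TSA and 545.6 and 1188 without. UBP18, a protease that removes ubiquitin, read 845.6 and 469.4 with TSA and 208.4 and 106.3 without. Its lower TSA signal was barely over the control level.

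AT4G16190, a papain-type cysteine protease, offered a second reading of a member's transcript. Member 15972_at read 3113 and 6849 with TSA and 1323 and 1242 without. Probe set 13230_at of the same locus, which is not a member, read 2497 and 7716 with TSA and 774.8 and 2411 without. Within the replicates its log2 differences were 1.65 and 1.67, against 1.22 and 2.43 for the member, so both probe sets were higher with TSA in both replicates. The groups of 13230_at barely parted, however. Its TSA replicate 1 signal was over its untreated replicate 2 signal by only 0.05 on the log2 scale. Among the 38 loci AT4G16190 was the only one with a further probe set outside the members.

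The remaining members with a single gene were varied. AT4G31830, whose role is not given here, read 4239 and 808.6 with TSA and 25 and 111.5 without. AT4G38780, a splicing factor, read 630.2 and 618.7 with TSA and 39.0 and 143.5 without. AT2G44830, a protein kinase, read 945.4 and 661.3 with TSA and 164.2 and 87.3 without. All 3 had untreated signals at control level. AT1G62510, of the superfamily of lipid transfer proteins and seed albumins, was in contrast measured well over it, at 49283 and 15350 with TSA and 7485 and 6251 without. The other 4 loci with no role given here had log2 differences from 1.37 to 1.70, each with TSA replicates less than 2-fold apart.

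**Figure D4:**
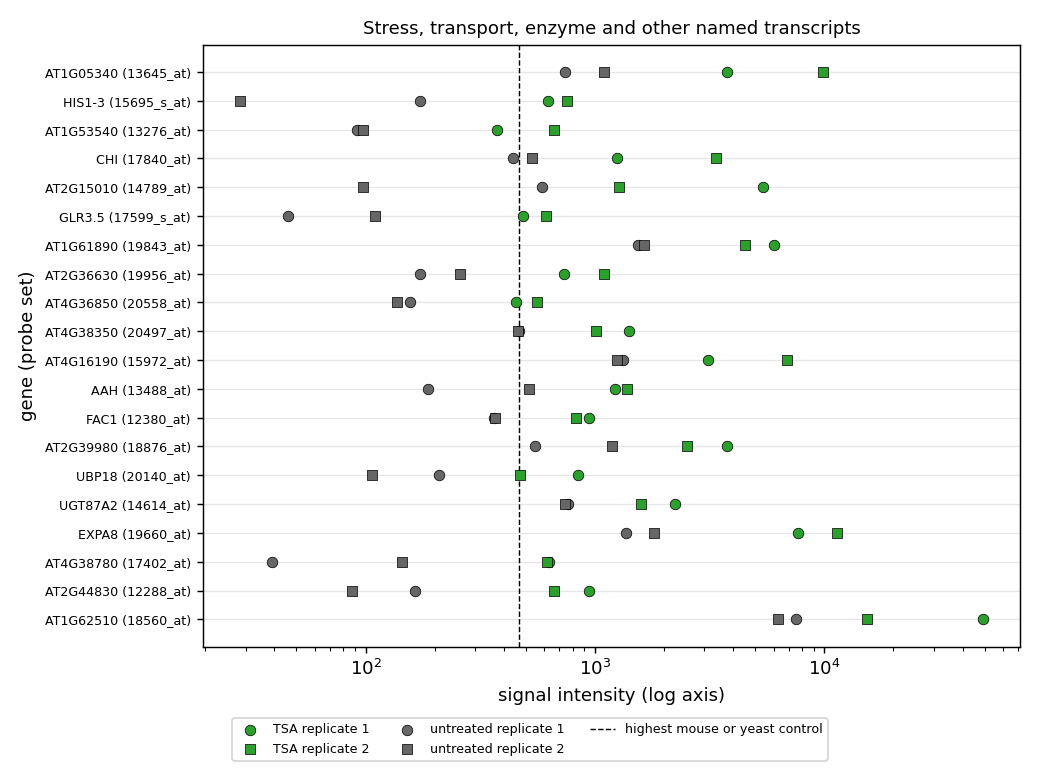
Signal intensity (log axis) on each array for the members of the stress and defence, transport, enzyme and other groups, from top to bottom. Green symbols are TSA and grey symbols untreated, circles are replicate 1 and squares replicate 2, and the dashed line is the highest mouse or yeast control, 465.9. TSA replicate 1 lies on either side of TSA replicate 2, and many members have untreated signals left of the line.

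The 49 members without a single listed gene had log2 differences from 1.25 to 5.48, with a median of 2.40, and 25 of them had both untreated signals under the control level. The 2 widest gaps between the groups were at 17407_s_at and 17282_s_at, the second at 4750 and 2050 with TSA and 162.4 and 151.5 without. The third, 20641_at, read 34781 and 29238 with TSA and 2954 and 1732 without, and was thus measured on both sides with close TSA replicates. Probe set 16422_at had nearly equal TSA replicates, at 2900 and 2907, over untreated signals of 343 and 395. Probe sets 13198_i_at and 13199_r_at share their ID number and had like differences, 3.79 and 3.51 within replicate 1 and 1.35 and 1.14 within replicate 2. These IDs were singled out after their values were seen.

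The 2 replicate pairs agreed on the direction at every member, as the rule requires. The differences within replicates 1 and 2 had medians of 2.53 and 2.18 over the members, and of 0.09 and -0.07 over all tested probe sets. They were within 0.5 of each other on the log2 scale at 31 of the 88 members (35.2%, against 26.4% of all tested) and more than 2 apart at 17 (19.3% against 22.5%). The rule uses the lower TSA and the higher untreated value, which favours replicates that agree. The pairs follow the replicate numbers, which are not stated to mark a shared batch, so these shares depend on the numbering. The difference within replicate 1 was the larger at 51 members (58.0% against 54.2%). Both differences were at least 2 (4-fold) at 35 members and at 36 of all tested probe sets, and a gap of at least 4-fold between the groups held at 19 members, 0.384% of the tested probe sets. Under both quantile normalization and median centring, 59 of the 88 members still met the 2-fold rule, among them 28 of the 39 with a single gene. With median centring the gap fell under 2-fold at 18558_at of LEA, ATOEP16-2, AT1G04560, AT1G62510, AT2G15010, FAC1, UGT87A2, UBP18, AT4G38350, AT4G17080 and AT4G01870, while the groups still did not overlap. Just inside the threshold of 1 the gap was 1.028, 1.020 and 1.017, and just outside it was 0.998, 0.997 and 0.990.

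**Figure D5:**
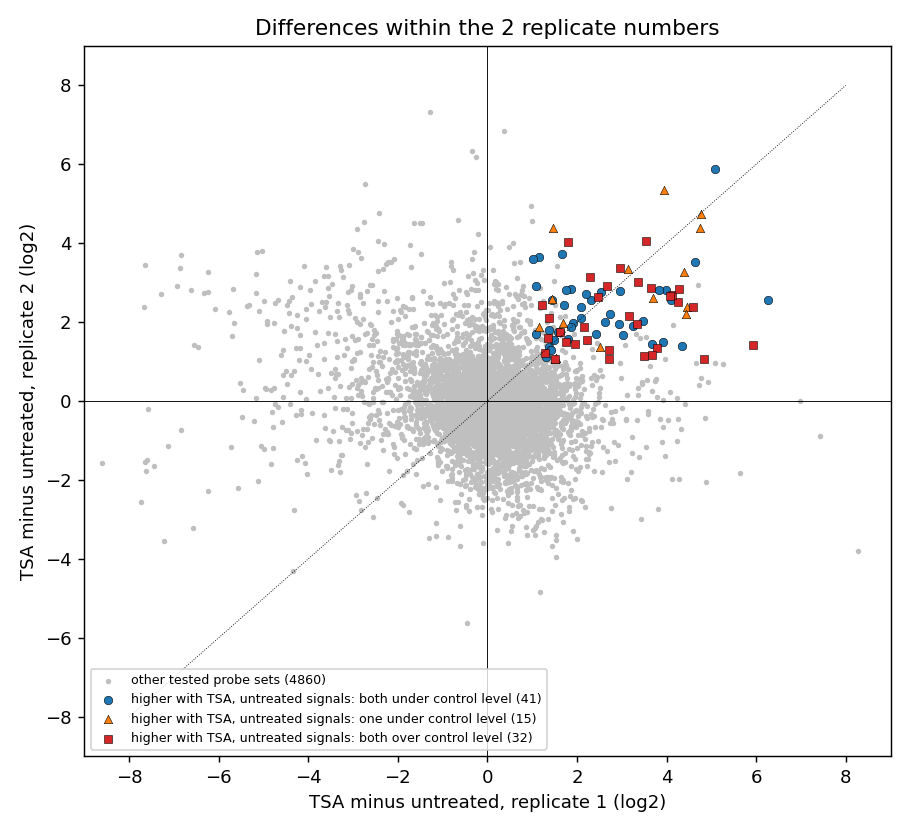
Log2 difference between TSA and untreated within replicate 1 (horizontal) and within replicate 2 (vertical) for the 4948 tested probe sets. Grey points are the 4860 other probe sets, and coloured symbols are the 88 members by whether 2 (blue circles, 41), 1 (orange triangles, 15) or none (red squares, 32) of their untreated signals were under the control level. The dotted line marks equal differences, and the 3 classes of members lie intermingled on both sides of it.

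Probe sets with the suffix _at were 72.7% of the members and 72.3% of all tested, and those with the suffix _s_at, whose probes can match more than 1 transcript, were 21.6% and 20.5%. Of the members with a single gene, 16 were on chromosome 2 and 14 on chromosome 4, or 41.0% and 35.9%, against 36.7% and 31.2% of all tested probe sets with a single gene. Chromosome 1 held 5 (12.8% against 21.5%), chromosome 3 held 3 (7.69% against 5.4%) and chromosome 5 held 1 (2.56% against 5.1%). These shares were not tested. ATOEP16-2 and the cysteine protease gene AT4G16190 lay on chromosome 4 with 3 genes between them in the TAIR10.1 annotation, the closest pair among the member loci. The LEA gene AT4G36600 and the cupin gene AT4G36700 had 11 genes between them.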

How the data were processed

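The authors deposited 1 linear signal intensity for each probe set and array. The submitters' processing notes name MAS5; its version, scaling target and detection calls are not stated there. The 2% trimmed mean was 1502.56 to 1502.70 on each array, which points to a common scaling, and the values were used as deposited. Precision is limited by the number of arrays. An offset of 30.8 (the signals' 10th percentile) preceded log2, which understates differences of dim probe sets, and the dimmest 40% by mean signal were left out. The groups were compared by limma 3.58.1 (R 4.3.3) with lmFit, eBayes with an intensity trend, all 4 arrays and no covariate. The SE values are from this fit. A run on simulated data, with a single spread taken from the untreated arrays, checked its estimates and not the SE values. Genes came from GEO's platform annotation, updated through the gene ID to RefSeq symbols (TAIR10.1): 3794 probe sets had 1 gene, of which 3784 were found in RefSeq, 70 had several and 4383 none listed.

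The members and lists were chosen with earlier results of these data known. The rule for named genes took, among members with 1 gene, the 12 widest gaps, the 6 highest mean TSA signals, the 6 highest mean untreated signals and any gene of the 11 lists, 17 probe sets in all; the other genes were named, and roles assigned, after their values were seen. The lists of seed maturation regulators (6 genes), glutathione transferases (6) and flavonoid enzymes (6) had no tested probe set. Alternatives in scaling, offset, filter, variance model, threshold, replicate block and left-out array were run. The replicate numbers are not stated to mark a shared batch.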

Additional observations from a re-analysis of the deposited data

How the results depend on the processing

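The count of 88 was 72 with quantile normalization and 70 with median centring, and 59 members met the rule under both, among them 8 of the 9 LEA and dehydrin probe sets and 3 of the 5 other seed and dehydration ones; the groups did not overlap under either at any of the 88. It was 91 and 71 with the offset at the 5th and 25th percentile, and 132 unfiltered, and 110 and 63 when the dimmest 20% and 60% were dropped. It was 69 with a mean signal above the highest mouse or yeast control, an alternative chosen after seeing the data. A 4-fold gap left 19, and a gap above 0 gave 693 (14.0%). With 1 array left out, and so fewer pairs to satisfy, it ranged from 250 to 506. The limma counts were 0 higher and 0 lower under each of these scalings, offsets and filters, without the trend, at an adjusted p of 0.1 and with a replicate block (0 and 0, smallest adjusted p 0.597). When single arrays were dropped, limma's counts spanned 0 to 46 higher and 0 to 134 lower. All those calls came without TSA replicate 2, in a fit that holds no spread between TSA treatments. The median log2 difference of the members was 2.09 with the offset at the 25th percentile, 2.71 over the 63 members left by the 60% filter, and 2.07 to 2.58 with 1 array left out. The 41 members with both untreated signals at control level became 18 against each array's own highest control, 16 of 63 when the dimmest 60% were dropped and 22 of 69 with a mean signal above the controls, where fewer dim members remained, and 41 to 50 with 1 array left out. The 17 named probe sets kept a positive log2 difference in all 194 alternatives, from 1.16 to 5.83, a direction that the choice of members fixes. Signals near the controls limit the size of any fold.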
